A study of Mus musculus with 24 samples.

Results

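These are 10 genes of the unfolded protein response, mostly chaperones and folding factors of the endoplasmic reticulum. Their transcript levels were followed here in mouse lung after intranasal diesel exhaust particles, with and without ovalbumin. They are Hspa5, Hsp90b1, Hyou1, Pdia4, Pdia6, Sdf2l1, Manf, Creld2, Xbp1 and Ddit3. They were chosen by gene symbol, and each was read from the probe set annotated to that symbol alone that had the highest mean over all arrays. The 10 genes hold 19 probe sets, out of 12393 genes and 20380 probe sets with a single gene symbol. The other probe sets of these genes were kept as a check.

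The study set 3 chemically distinct diesel exhaust particle samples beside each other, written N-DEP, A-DEP and C-DEP in its design text and NDEP, ADEP and CDEP in its sample titles. All 24 mice were female BALB/C, 8 to 10 weeks old, in 8 groups of 3, and each mouse gave 1 lung array. Each group had 2 intranasal instillations, on days 0 and 13, and lungs were taken 18 hours after the second. The saline group had saline alone. The NDEP, ADEP and CDEP groups had 150 ug of the named particles. The OVA group had 20 ug of ovalbumin, an egg protein used as an allergen in mice. The NDEP+OVA, ADEP+OVA and CDEP+OVA groups had 150 ug of particles together with 20 ug of ovalbumin. The 4 groups given ovalbumin are labelled as sensitized, and no allele or transgene is named for any group. What the letters N, A and C stand for is not given in the sources used here. Values are deposited Affymetrix intensities, and every level below is their log2, so that a difference of 1 is a doubling. Levels of different genes were not set against each other, because probe sets differ in brightness for reasons other than abundance. A gene is said to have risen or fallen where limma's two-sided test over all 12393 genes gave a Benjamini-Hochberg adjusted p under 0.05. All 5 lung marker genes examined (Sftpc, Sftpb, Scgb1a1, Ager and Cldn5) were measured above the 25th percentile of the array in every group, and their summed intensity ran from 35515 to 42725 over the 24 arrays.

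The endoplasmic reticulum is the compartment in which secreted and membrane proteins fold. When unfolded proteins build up there, the sensors ATF6, IRE1 and PERK start the unfolded protein response. ATF6 is cut to release a transcription factor, IRE1 splices Xbp1 mRNA so that it encodes an active factor, and PERK slows translation and favours ATF4, which induces Ddit3. Genes for chaperones, protein disulfide isomerases and degradation factors are well known targets. In lung, cells that secrete heavily, such as mucous airway cells, alveolar type 2 cells and plasma cells, depend on this system.

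RefSeq promoter sequence (build GRCm38.p6) was at hand for 8 of the 10 genes, and not for Manf and Hyou1. The 250 bases before the transcript start are shown for 4 genes that mark the range of the findings below: Hspa5, the standard readout of the response, Pdia6, which separated all particle arrays from the others, Creld2, which had the largest difference, and Xbp1, whose brightest probe set passed in no comparison. Each runs 5′ to 3′ on the strand of the gene. They lie at chr2:34771840-34772089 (Hspa5), chr12:17266339-17266588 (Pdia6), chr15:88819396-88819645 (Creld2) and chr11:5520391-5520640 (Xbp1), all on the plus strand.
Hspa5: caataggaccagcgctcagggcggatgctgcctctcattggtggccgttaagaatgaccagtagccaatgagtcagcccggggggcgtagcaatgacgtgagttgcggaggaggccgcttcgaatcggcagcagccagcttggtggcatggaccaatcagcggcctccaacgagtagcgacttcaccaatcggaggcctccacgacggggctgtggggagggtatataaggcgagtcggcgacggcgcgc
Pdia6: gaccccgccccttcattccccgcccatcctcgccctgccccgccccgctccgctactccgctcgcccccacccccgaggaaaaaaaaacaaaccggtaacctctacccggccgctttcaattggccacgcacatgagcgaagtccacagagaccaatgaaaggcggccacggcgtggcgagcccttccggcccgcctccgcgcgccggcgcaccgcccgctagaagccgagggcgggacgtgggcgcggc
Creld2: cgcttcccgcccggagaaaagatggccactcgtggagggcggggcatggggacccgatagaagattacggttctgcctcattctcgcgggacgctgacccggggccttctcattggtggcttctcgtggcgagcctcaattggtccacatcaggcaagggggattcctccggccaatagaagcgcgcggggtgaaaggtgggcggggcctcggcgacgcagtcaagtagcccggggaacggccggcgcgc
Xbp1: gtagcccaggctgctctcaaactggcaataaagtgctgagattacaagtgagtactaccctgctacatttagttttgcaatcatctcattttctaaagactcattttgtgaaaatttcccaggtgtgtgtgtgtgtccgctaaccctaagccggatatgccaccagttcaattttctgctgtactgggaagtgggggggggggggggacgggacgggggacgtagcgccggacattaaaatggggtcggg

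G and C made up 62.4% of these bases in Hspa5, 70.4% in Pdia6, 66.0% in Creld2 and 50.4% in Xbp1. The median over all 32851 promoters of the table was 52.4%. The other 4 lay at 64.0% (Sdf2l1), 64.8% (Ddit3), 65.2% (Pdia4) and 66.8% (Hsp90b1), so Xbp1 was the one below that median. Binding was not measured on these arrays, no binding site is reported here, and the composition is a description only.

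Chaperone transcripts were higher in mice given particles. Averaged over the states without and with ovalbumin, CDEP raised 9 of the 10 genes, against 5.86% of all genes raised, and NDEP and ADEP raised 8 each, against 4.7% and 2.43%. The ADEP count was 5 without saline replicate 1, ADEP replicate 3, OVA replicate 2 or ADEP+OVA replicate 2. The averaged ADEP calls of Creld2 and Pdia4 were each lost on leaving out any of 7 of the 12 arrays compared. No other probe set of these genes passed with ADEP in that average, with differences from -0.05 (Pdia4) to 0.35 (Hyou1). By its brightest probe set, Xbp1 was raised by none of the 3, although a second Xbp1 probe set rose with CDEP by 0.37 ± 0.08 (adjusted p = 0.00796), and no gene of the 10 fell, against 1.44%, 0.597% and 3.19% of all genes that fell with NDEP, ADEP and CDEP. For Pdia6, all 18 arrays from particle-treated mice lay above all 6 from mice without particles. For Manf, Sdf2l1, Hspa5 and Hsp90b1 this held for 17 of the 18. Complete separation of that kind was seen for 94 of the 12393 genes (0.758%). Ovalbumin alone raised none of the 10. The highest mean level of each of the 10 genes was in CDEP+OVA, although for Hsp90b1 it was 10.33 there and 10.32 in CDEP. How many of all genes had their highest mean in CDEP+OVA was not counted. In whole lung, a change in the number of cells of a type and a change in RNA per cell cannot be told apart.

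**Figure D1:**
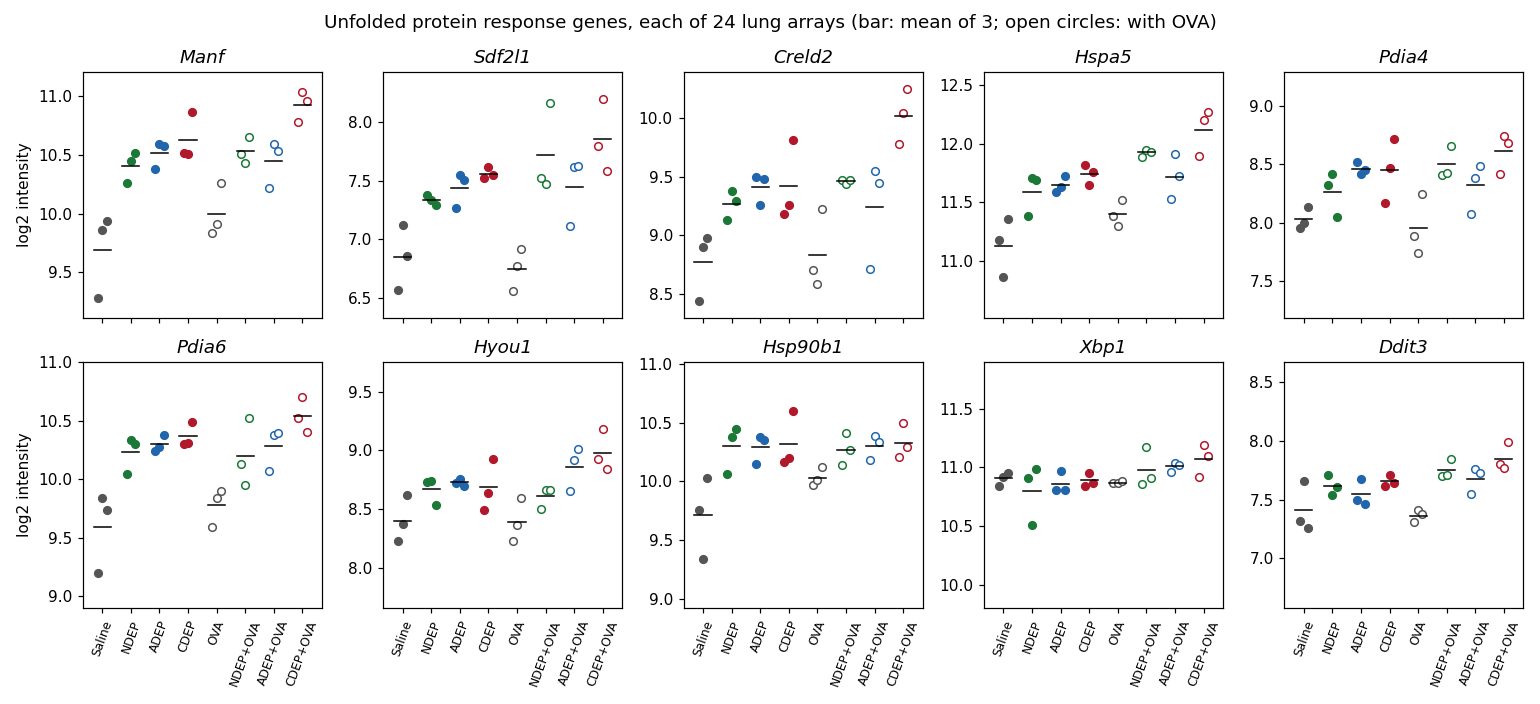
Log2 intensity (y axis) of the 10 genes on each of the 24 arrays, by group (x axis), with a bar at the mean of 3; filled circles are groups without ovalbumin and open circles groups with it, and every panel spans the same number of log2 units. The saline and OVA arrays lie lowest in most panels, Pdia6 separates them fully from the 18 particle arrays, and Xbp1 spans the narrowest range, 0.68.

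Hspa5 encodes BiP, the main Hsp70 chaperone of the endoplasmic reticulum, which binds unfolded proteins and holds the sensors inactive. Its log2 level was 11.18, 10.86 and 11.36 in saline, 11.38, 11.71 and 11.69 in NDEP, 11.59, 11.63 and 11.73 in ADEP, and 11.82, 11.65 and 11.76 in CDEP. Every particle array lay above every saline array. Hspa5 rose by 0.46 ± 0.12 (SE, n = 3 and 3) with NDEP (adjusted p = 0.0443), by 0.52 ± 0.12 with ADEP (0.0302) and by 0.61 ± 0.12 with CDEP (0.00768), which is 1.53-fold for CDEP. The NDEP call was lost without saline replicate 1 (0.48) or 2 (0.32) or NDEP replicate 2 (0.40) or 3 (0.41), and the ADEP call without any array but saline replicate 3 (0.38 to 0.55). The CDEP call held on each. A second Hspa5 probe set, with a mean of 9.69, gave 0.38 for NDEP and 0.41 for ADEP (adjusted p = 0.146 and 0.136) and rose by 0.58 with CDEP (0.0168). With ovalbumin, the levels were 11.38, 11.30 and 11.52 in OVA, 11.89, 11.95 and 11.93 in NDEP+OVA, 11.53, 11.91 and 11.73 in ADEP+OVA, and 11.90, 12.20 and 12.27 in CDEP+OVA. All particle arrays were again above all OVA arrays, although the lowest ADEP+OVA array (11.53) was close to the highest OVA array (11.52). Hspa5 rose by 0.53 ± 0.12 with NDEP+OVA over OVA (adjusted p = 0.0211) and by 0.72 ± 0.12 with CDEP+OVA (0.000756, 1.65-fold). The former call was lost without OVA replicate 1 (0.52), OVA replicate 2 (0.48) or NDEP+OVA replicate 3 (0.52). The second probe set rose by 0.56 and 0.75 there (adjusted p = 0.0287 and 0.00126). Averaged over ovalbumin states it was 0.33 higher with ADEP (adjusted p = 0.0584). The ADEP+OVA difference was 0.32 ± 0.12 (adjusted p = 0.278). Hspa5 was also the single gene of the 10 raised by ovalbumin averaged over the 4 backgrounds, by 0.26 ± 0.06 (adjusted p = 0.0192), against 0.912% of all genes. With the RNA quality measures described below as covariates that difference was 0.24 (adjusted p = 0.0557). The second probe sets of Hspa5 and Hsp90b1 also rose in that average, by 0.25 and 0.26 (adjusted p = 0.0402 and 0.0293).

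Hsp90b1 encodes GRP94, the Hsp90 chaperone of the same compartment. Its level was 9.76, 9.34 and 10.03 in saline against 10.06, 10.38 and 10.45 in NDEP, 10.15, 10.38 and 10.35 in ADEP, and 10.17, 10.20 and 10.60 in CDEP. The particle groups lay above saline without overlap and close to each other. Hsp90b1 rose by 0.59 ± 0.14 with NDEP (adjusted p = 0.0246), 0.58 ± 0.14 with ADEP (0.0385) and 0.61 ± 0.14 with CDEP (0.0205). All 3 calls were lost without saline replicate 1 (0.61, 0.61 and 0.64) or 2 (0.40, 0.40 and 0.43). The NDEP call was also lost without NDEP replicate 2 (0.55) or 3 (0.51), the ADEP call without any ADEP array (0.54 to 0.65) and the CDEP call without CDEP replicate 3 (0.47). In OVA the arrays stood at 9.97, 10.01 and 10.12, and CDEP+OVA reached 10.21, 10.50 and 10.29. Those groups did not overlap either, but the difference was 0.30 ± 0.14 (95% interval 0.00 to 0.60, adjusted p = 0.278). NDEP+OVA and ADEP+OVA lay 0.24 and 0.27 above OVA, also short of the threshold. The OVA group itself was 0.32 ± 0.14 above saline (adjusted p = 0.719). A second Hsp90b1 probe set gave smaller differences from saline, 0.14 for NDEP, 0.35 for ADEP and 0.34 for CDEP (adjusted p = 0.688, 0.188 and 0.131), so the Hsp90b1 calls against saline rest on 1 probe set. Averaged over ovalbumin states the second one rose with CDEP alone of the particles, by 0.39 (adjusted p = 0.00795).

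Hyou1 encodes GRP170, a large Hsp70 relative that releases nucleotide from BiP. It measured 8.23, 8.37 and 8.62 in saline and 8.49, 8.64 and 8.93 in CDEP, which overlap. Its differences from saline were 0.26 ± 0.13 for NDEP, 0.32 ± 0.13 for ADEP and 0.28 ± 0.13 for CDEP, with adjusted p of 0.326, 0.211 and 0.215. With ovalbumin the separation was wider. OVA arrays stood at 8.23, 8.36 and 8.59 and CDEP+OVA arrays at 8.93, 9.18 and 8.84, with no overlap, and Hyou1 rose by 0.59 ± 0.13 (adjusted p = 0.00618, 1.51-fold). Without replicate 2 of CDEP+OVA that call was lost, at 0.49. Probe sets of Hyou1 disagreed for CDEP alone, since a second one rose by 0.73 ± 0.14 (adjusted p = 0.00743), and for CDEP+OVA it rose by 0.53 ± 0.14 (0.0373). Another and much dimmer one, with a mean of 4.96, gave 0.96 for CDEP (adjusted p = 0.00932) and 0.11 for CDEP+OVA (0.815).

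Pdia4 and Pdia6 are protein disulfide isomerases, which form and rearrange the disulfide bonds of folding proteins. Pdia6 stood at 9.20, 9.84 and 9.74 in saline, 10.04, 10.33 and 10.30 in NDEP, 10.24, 10.27 and 10.38 in ADEP, and 10.30, 10.31 and 10.49 in CDEP. With ovalbumin it was 9.59, 9.84 and 9.90 in OVA, 10.13, 9.95 and 10.52 in NDEP+OVA, 10.07, 10.38 and 10.39 in ADEP+OVA, and 10.52, 10.70 and 10.40 in CDEP+OVA. The lowest particle array (9.95) stood just above the highest array without particles (9.90). Pdia6 rose by 0.63 ± 0.15 with NDEP, 0.71 ± 0.15 with ADEP and 0.77 ± 0.15 with CDEP (adjusted p = 0.0192, 0.0179 and 0.00567), and by 0.76 ± 0.15 with CDEP+OVA over OVA (0.00287, 1.70-fold). Both CDEP calls held on leaving out each array. The NDEP call was lost without saline replicate 1 (0.44) or NDEP replicate 2 (0.58) or 3 (0.60), and the ADEP call without saline replicate 1 (0.51) or ADEP replicate 1 (0.74) or 3 (0.66). NDEP+OVA and ADEP+OVA gave 0.43 and 0.50 (adjusted p = 0.178 and 0.15). Pdia4 was 7.96, 8.00 and 8.14 in saline and 8.17, 8.47 and 8.72 in CDEP, a difference of 0.42 ± 0.14 that did not pass the test (adjusted p = 0.0948) although the arrays did not overlap. It rose over OVA (7.89, 7.74 and 8.25) by 0.54 ± 0.14 in NDEP+OVA (8.41, 8.43 and 8.66, adjusted p = 0.0459) and by 0.65 ± 0.14 in CDEP+OVA (8.42, 8.74 and 8.68, adjusted p = 0.00683). The NDEP+OVA call was lost without OVA replicate 1 (0.51) or 2 (0.43) or NDEP+OVA replicate 1 (0.58) or 3 (0.46), and the CDEP+OVA call without OVA replicate 2 (0.54) or CDEP+OVA replicate 2 (0.59). Dimmer second probe sets of Pdia4 (mean 4.66) and Pdia6 (mean 5.99) passed in none of the 6 comparisons of particles with saline or OVA.

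Sdf2l1 encodes a luminal partner of BiP and its co-chaperones, and it had one of the widest ranges of the 10, from 6.56 to 8.20. In saline it was 6.57, 7.12 and 6.86, and in CDEP 7.52, 7.62 and 7.55, a rise of 0.72 ± 0.18 (adjusted p = 0.0232, 1.64-fold). That call was lost on leaving out any of the 6 arrays but saline replicate 2, with differences of 0.58 to 0.85 over the 6. NDEP (7.38, 7.34 and 7.29) and ADEP (7.27, 7.55 and 7.51) also lay above all saline arrays, at 0.49 ± 0.18 and 0.59 ± 0.18 (adjusted p = 0.151 and 0.0844). With ovalbumin the contrast was larger in value, from 6.56, 6.77 and 6.92 in OVA to 7.52, 7.47 and 8.16 in NDEP+OVA and 7.80, 8.20 and 7.58 in CDEP+OVA. Sdf2l1 rose by 0.96 ± 0.18 (adjusted p = 0.00252, 1.95-fold) and 1.11 ± 0.18 (0.000333, 2.15-fold), and both calls held on leaving out each array in turn. ADEP+OVA, at 7.11, 7.62 and 7.63, was 0.70 ± 0.18 above OVA without overlap (adjusted p = 0.0648).

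Manf encodes a secreted factor of the endoplasmic reticulum that is retained by BiP and is known as a stress-induced survival factor. It was 9.28, 9.86 and 9.94 in saline, 10.26, 10.45 and 10.52 in NDEP, 10.38, 10.59 and 10.58 in ADEP, and 10.52, 10.51 and 10.87 in CDEP. Every particle array was higher than every saline array. Manf rose by 0.72 ± 0.15 with NDEP (adjusted p = 0.00767, 1.65-fold), 0.82 ± 0.15 with ADEP (0.00694, 1.77-fold) and 0.94 ± 0.15 with CDEP (0.000969, 1.92-fold). These were the highest log2 differences of the 10 genes against saline in each of the 3 comparisons. In OVA it was 9.83, 9.91 and 10.26, and in CDEP+OVA 10.78, 11.04 and 10.96, a rise of 0.93 ± 0.15 (adjusted p = 0.000383, 1.91-fold). The NDEP call was lost without saline replicate 1 (0.52), and the ADEP call without saline replicate 1 (0.62) or ADEP replicate 3 (0.79). The CDEP calls on Manf, alone and with ovalbumin, held on leaving out each array in turn. NDEP+OVA (10.51, 10.43 and 10.65) and ADEP+OVA (10.22, 10.59 and 10.53) lay 0.53 ± 0.15 and 0.45 ± 0.15 above OVA (adjusted p = 0.0656 and 0.203).

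Creld2 encodes a disulfide isomerase-like protein of the endoplasmic reticulum that is induced by its stress. It was 8.44, 8.90 and 8.98 in saline, and NDEP (9.13, 9.38 and 9.29), ADEP (9.50, 9.26 and 9.48) and CDEP (9.18, 9.26 and 9.81) lay above it without overlap. The differences of 0.50, 0.64 and 0.65 (each ± 0.20) did not pass the test, with adjusted p of 0.203, 0.0984 and 0.0621. OVA arrays stood at 8.70, 8.58 and 9.22 and CDEP+OVA arrays at 9.78, 10.04 and 10.25, and Creld2 rose by 1.19 ± 0.20 (adjusted p = 0.000498). At 2.29-fold this was the largest difference of any of the 10 genes in the comparisons with saline or OVA. NDEP+OVA (9.47, 9.44 and 9.47) was 0.62 ± 0.20 above OVA (adjusted p = 0.109). ADEP+OVA was 8.71, 9.55 and 9.45, with 1 array inside the OVA range, and was 0.41 ± 0.20 higher (0.434).

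The transcription factors of the set gave smaller differences. Xbp1, whose spliced mRNA encodes an activator of the response, measured 10.84, 10.92 and 10.95 in saline and 10.84, 10.95 and 10.87 in CDEP, a difference of -0.02 ± 0.11 (95% interval -0.24 to 0.20, adjusted p = 0.949). In OVA it was 10.87, 10.87 and 10.88 and in CDEP+OVA 10.92, 11.19 and 11.10, or 0.20 ± 0.11 higher (adjusted p = 0.344) without overlap. Only 8 of the 18 particle arrays lay above all arrays without particles. A second Xbp1 probe set of like brightness (mean 10.51) gave 0.34 ± 0.12 for CDEP (adjusted p = 0.11) and 0.39 ± 0.12 for CDEP+OVA (0.0699), both short of the threshold. Averaged over both states it rose with CDEP by 0.37 ± 0.08 (adjusted p = 0.00796), where the first gave 0.09 (0.521), so the probe sets of Xbp1 disagree on that call. A dimmer Xbp1 probe set (mean 7.94) gave 0.36 in that average (adjusted p = 0.0642), close in value to the second. The dimmest (mean 6.39) gave -0.1 (adjusted p = 0.505). No reading separates the spliced from the unspliced mRNA, as the sources used here do not say which form a probe set covers.

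Ddit3 encodes CHOP, the stress-induced factor downstream of PERK and ATF4 that is linked to cell death. It was 7.32, 7.66 and 7.26 in saline, 7.71, 7.54 and 7.61 in NDEP, 7.50, 7.68 and 7.46 in ADEP, and 7.62, 7.71 and 7.64 in CDEP. Each particle group overlapped saline, where replicate 2 was high. The differences were 0.21, 0.14 and 0.25 (each ± 0.10), with adjusted p of 0.327, 0.575 and 0.173. Over OVA (7.31, 7.41 and 7.38), Ddit3 rose by 0.49 ± 0.10 in CDEP+OVA (7.80, 7.77 and 7.99, adjusted p = 0.00488, 1.40-fold) and by 0.39 ± 0.10 in NDEP+OVA (7.70, 7.71 and 7.85, 0.0461). The NDEP+OVA call was lost on leaving out any 1 of the 6 arrays, with 0.34 to 0.41, whereas the CDEP+OVA call held on each. ADEP+OVA (7.55, 7.76 and 7.73) was 0.31 ± 0.10 higher without overlap (adjusted p = 0.19).

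**Figure D2:**
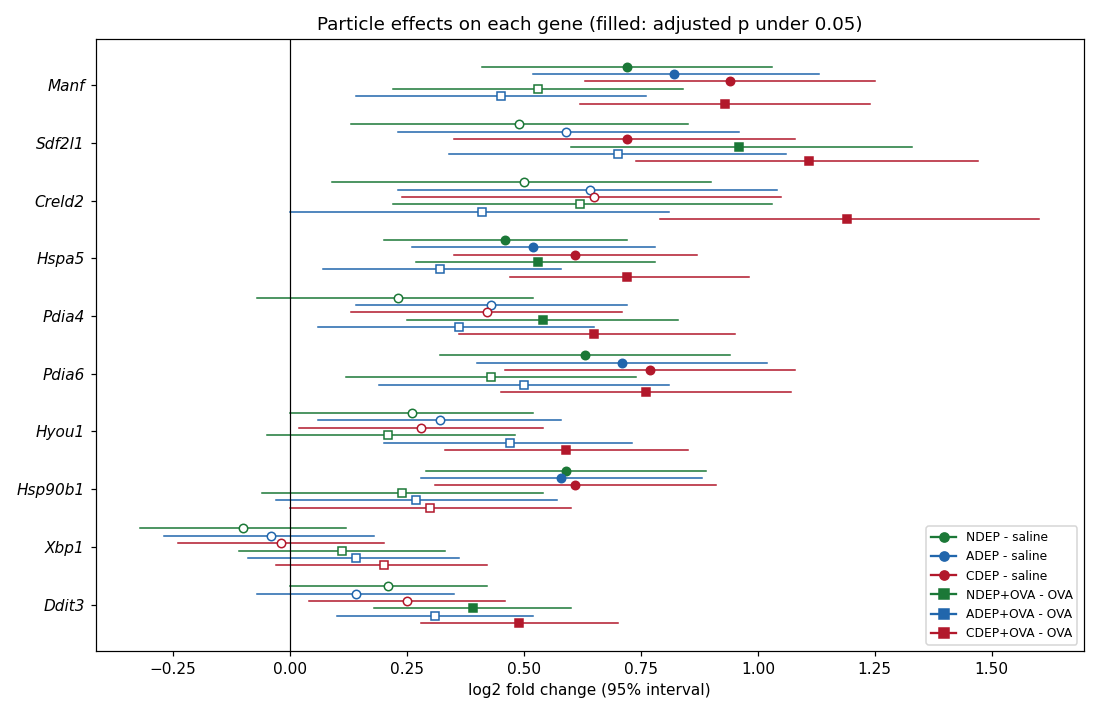
Log2 fold change of each gene (x axis) with its 95% interval for the 3 particles against saline (circles) and the 3 particles with ovalbumin against OVA (squares); filled symbols passed an adjusted p of 0.05. Creld2 and Sdf2l1 reach 1.19 and 1.11 in CDEP+OVA, and the intervals of Xbp1 all include 0.

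Counted over the 10 genes, the particles alone raised 4 with NDEP (Manf, Hspa5, Pdia6 and Hsp90b1), the same 4 with ADEP, and those 4 and Sdf2l1 with CDEP, while none fell. The background was 2.25%, 1.16% and 2.28% of all genes raised, and 0.452%, 0.492% and 1.76% lowered. The median log2 difference over the 10 was 0.47, 0.55 and 0.61, beside 0.0, -0.01 and -0.02 over all genes. The 3 comparisons share the saline arrays, and replicate 1 of saline mattered: without it the counts were 0, 0 and 3. Without replicate 3 of ADEP the ADEP count was also 0, and without replicate 3 of CDEP the CDEP count was 3. All 4 genes stayed higher in value without saline replicate 1, with Manf at 0.52 for NDEP and 0.62 for ADEP. Arrays did not overlap, with the particle group higher, for 6 of the 10 with NDEP, 8 with ADEP and 7 with CDEP, against 10.8%, 10.7% and 10.9% of all genes.

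Against OVA, CDEP+OVA raised 8 of the 10, all but Hsp90b1 and Xbp1, against 3.62% of all genes. None of the 10 fell in the 3 comparisons with OVA, against 1.17% of all genes with CDEP+OVA, 0.331% with NDEP+OVA and 0.0565% with ADEP+OVA. The arrays of all 10 genes were higher without overlap, against 12.8% of all genes, and the median difference was 0.69 beside -0.01 over all genes. Without replicate 2 of CDEP+OVA the count was 6, and over the other arrays left out it was no lower. NDEP+OVA raised 4 (Sdf2l1, Hspa5, Pdia4 and Ddit3) against 1.74% of all genes, with a median of 0.48 beside 0.02, and 8 did not overlap, against 9.21% of all genes. That count was 1 without OVA replicate 1, OVA replicate 2 or NDEP+OVA replicate 3. ADEP+OVA raised none by limma's adjusted p, against 0.629% of all genes. Of the 10, 8 had an unadjusted p under 0.05 there, against 11.4% of all genes, the median was 0.38 beside 0.03, and 7 did not overlap, against 11.1% of all genes. These 3 comparisons share the OVA arrays. Replicate 1 of ADEP+OVA stood lowest of its group for all 10 genes, and leaving it out gave at most 1 call.

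Ovalbumin alone against saline raised none of the 10 by limma's adjusted p, as for 0.0% of all genes. Hspa5 and Hsp90b1 had an unadjusted p under 0.05, against 6.6% of all genes, and no gene of the 10 was higher without overlap, against 4.78% of all genes. The median difference was 0.02, beside -0.02 over all genes. Whether ovalbumin altered the particle effect was tested by the interaction of each particle with ovalbumin. None of the 10 passed limma's adjusted p in any of the 3 interactions, and none had an unadjusted p under 0.05. Over all genes, 0.0242% passed with NDEP, 0.0242% with ADEP and 0.371% with CDEP. An unadjusted p under 0.05 was found for 6.16%, 10.4% and 12.7% of all genes in these interactions. The interaction with the smallest p was Creld2 with CDEP, at 0.55 (95% interval -0.03 to 1.12, unadjusted p = 0.0606, adjusted p = 0.42). Thus the higher count with ovalbumin for CDEP is not shown to be a larger effect. For CDEP the interaction values were close to 0 for Manf and Pdia6, both -0.01 (95% interval -0.45 to 0.43), and -0.31 for Hsp90b1 (-0.73 to 0.11). Ovalbumin within CDEP changed none by limma's adjusted p, against 3.58% of all genes, and 3 had an unadjusted p under 0.05, against 21.4% of all genes, with Creld2 at 0.61 (adjusted p = 0.0798) and Hspa5 at 0.38 (0.0806). Within NDEP and ADEP it also changed none of the 10 by limma's adjusted p, against 0.274% and 0.0646% of all genes. There 2 and 0 of the 10 had an unadjusted p under 0.05, against 9.64% and 9.95% of all genes.

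The particles were also compared directly, at the same dose and time. Without ovalbumin none of the 10 differed between any pair by limma's adjusted p, and none had an unadjusted p under 0.05. Of all genes, 0.0% differed by adjusted p between CDEP and either other particle, and 0.00807% between NDEP and ADEP. An unadjusted p under 0.05 was found for 6.68% of all genes between CDEP and ADEP. It was found for 5.92% between CDEP and NDEP and for 4.56% between NDEP and ADEP. The Manf difference between CDEP and ADEP was 0.12 (95% interval -0.19 to 0.42), and between CDEP and NDEP it was 0.22 (-0.09 to 0.53), so differences up to those bounds are not excluded by these arrays. With ovalbumin, Creld2 was 0.78 ± 0.20 higher in CDEP+OVA than in ADEP+OVA (adjusted p = 0.0437, 1.72-fold), against 0.815% of all genes. The call was lost without ADEP+OVA replicate 1 (0.52), ADEP+OVA replicate 3 (0.89), CDEP+OVA replicate 2 (0.78) or CDEP+OVA replicate 3 (0.67). Manf and Hspa5 were 0.48 and 0.40 higher there (adjusted p of 0.0917 each). Between CDEP+OVA and NDEP+OVA none passed by limma's adjusted p, against 0.00807% of all genes, and 4 had an unadjusted p under 0.05 (7.33% of all genes did), Creld2 at 0.57, Manf at 0.40, Hyou1 at 0.38 and Pdia6 at 0.34. None passed between NDEP+OVA and ADEP+OVA by limma's adjusted p, against 0.0161% of all genes. There none of the 10 had an unadjusted p under 0.05, against 10.8% of all genes.

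The order of group means is a description of the same arrays. For 9 of the 10 genes the saline and OVA groups held the lowest pair of places, and for Xbp1 the NDEP group was lowest. Adjacent groups in the order overlapped in most cases, with at most 1 of the 7 neighbouring pairs apart for any gene. For Manf the gap lay between OVA and NDEP, for Sdf2l1 between saline and NDEP, and for Pdia6 and Hsp90b1 between OVA and NDEP+OVA. For Creld2 it lay at the top, between NDEP+OVA and CDEP+OVA. Of the 10 genes, 9 had their highest single array in CDEP+OVA, and for Hsp90b1 it was replicate 3 of CDEP. The lowest and highest places were not counted over all genes.

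Of 21 further folding helpers and enzymes of the endoplasmic reticulum, 20 were measured. NDEP raised 2 of them, ADEP 3 and CDEP 6 against saline, and against OVA the counts were 3 with NDEP+OVA, 2 with ADEP+OVA and 10 with CDEP+OVA, while none fell. Raised among all genes were 2.25%, 1.16% and 2.28% against saline, and 1.74%, 0.629% and 3.62% against OVA, which is also the background for the lists that follow. Their median differences were 0.25, 0.24 and 0.29 against saline and 0.24, 0.17 and 0.44 against OVA, beside 0.0, -0.01 and -0.02, and 0.02, 0.03 and -0.01, over all genes. Dnajb11, a co-chaperone of BiP, rose by 0.79 ± 0.12 in CDEP+OVA (adjusted p = 0.00027), by 0.57 in NDEP+OVA, by 0.54 in ADEP+OVA and by 0.51 in CDEP. Pdia3, a disulfide isomerase for glycoproteins, rose by 0.56 with NDEP, 0.52 with ADEP, 0.56 with CDEP and 0.55 with CDEP+OVA. Calr, the calcium-binding lectin chaperone calreticulin, rose by 0.63 ± 0.11 in CDEP+OVA (adjusted p = 0.000669) and 0.54 ± 0.11 in NDEP+OVA (0.00496). Fkbp2, a prolyl isomerase, rose by 0.52 to 0.56 in the 3 particle groups alone and by 0.54 and 0.53 in ADEP+OVA and CDEP+OVA. Dnajb9, a BiP co-chaperone known as a target of spliced XBP1, rose by 0.60 with CDEP (adjusted p = 0.026) and was 0.50 higher in CDEP+OVA (0.0558).

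For the degradation machinery that removes misfolded proteins, 13 genes were measured, and CDEP+OVA raised 4 of them with a median of 0.34, beside -0.01 over all genes. Each of NDEP, ADEP, CDEP and NDEP+OVA raised 1, and ADEP+OVA raised 0. Vcp, the ATPase that extracts proteins from the membrane, rose by 0.52 with NDEP and 0.45 with ADEP. Syvn1, a ubiquitin ligase, rose by 0.53 with CDEP+OVA and 0.46 with NDEP+OVA, and Edem1 and Derl3 rose by 0.48 and 0.46 with CDEP+OVA. Of 13 sensors and trunk factors, 10 were measured, and the one that rose in any of these comparisons was Ern2, by 0.97 ± 0.17 with CDEP+OVA (adjusted p = 0.000713). Ern2 encodes the form of IRE1 known from mucus-producing epithelium. Ern1, Eif2ak3 (PERK), Atf6 and Atf4 were -0.14, 0.23, 0.33 and 0.26 from OVA in CDEP+OVA, and none passed. The sensors' median difference was 0.03, -0.06 and 0.03 against saline, near that of all genes. Against OVA it was 0.08, 0.02 and 0.15 with NDEP+OVA, ADEP+OVA and CDEP+OVA, beside 0.02, 0.03 and -0.01 over all genes. In the ATF4 and CHOP arm, all 13 genes were measured. NDEP, ADEP and CDEP raised 1, 0 and 1 against saline. NDEP+OVA, ADEP+OVA and CDEP+OVA raised 0, 0 and 2 against OVA, and 1 fell with CDEP+OVA, against 1.17% of all genes. The medians were -0.01, -0.0 and 0.05 against saline and 0.14, 0.05 and 0.01 against OVA. Over all genes they were 0.0, -0.01 and -0.02, and 0.02, 0.03 and -0.01. Asns, asparagine synthetase, rose by 0.35 with NDEP, 0.40 with CDEP and 0.31 with CDEP+OVA. Atf3, a stress-induced factor, rose by 0.57 with CDEP+OVA, and the lipoprotein receptor gene Vldlr fell by 0.68.

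**Figure D3:**
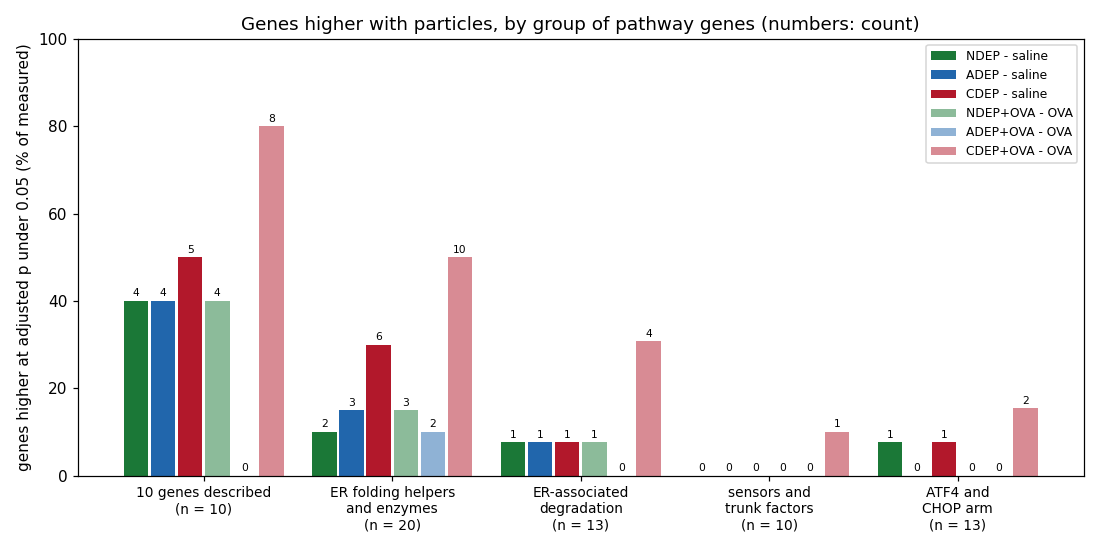
Share of measured genes that were higher at an adjusted p under 0.05 (y axis, percent), with the count above each bar, for the 10 genes and 4 further groups of pathway genes (x axis); colours give the particle, and pale bars are the comparisons with OVA. CDEP+OVA gave the highest count in each group, 8 of 10 for the genes described and 10 of 20 for the folding helpers, and 1 of 10 among the sensors.

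The genes most like the chaperones across arrays were found by Pearson's r with the mean of the 8 chaperones and folding factors (all but Xbp1 and Ddit3), each centred on its own mean. Over the 24 arrays, which share the 8 groups and their processing, the highest were Nans at 0.928, Dnajb11 at 0.905, Tmem39a at 0.904, Lap3 at 0.894 and Gclc at 0.884. Morf4l2, Hspd1, Pgk1, Il33 and Mrpl45 followed at 0.878 to 0.853. Ddit3 stood at 0.75 and Xbp1 at 0.322. On deviations from each group's mean, r was lower, at 0.139 for Ddit3 and 0.105 for Xbp1. For the genes from Nans to Mrpl45 it then ran from 0.375 (Il33) to 0.835 (Hspd1). Of the 20 highest genes outside the 8 and these 2, 2 stand in the further pathway lists, which hold 0.452% of all genes. This mean was -0.49 ± 0.19 (SD, n = 3) in saline and -0.37 ± 0.18 in OVA. It was 0.0 ± 0.09 in NDEP, 0.09 ± 0.05 in ADEP, 0.14 ± 0.17 in CDEP, 0.14 ± 0.12 in NDEP+OVA, 0.07 ± 0.22 in ADEP+OVA and 0.42 ± 0.14 in CDEP+OVA.

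RNA quality differed between some of these groups. It was read from the Gapdh control probe sets as the 3′ minus the 5′ log2 value, which is larger where RNA is more degraded. Gapdh gave 0.12 to 0.68 in saline and 0.0 to 0.12 in CDEP, where Actb, read the same way, gave 0.81 to 1.20 and 0.64 to 0.69. Saline was therefore higher than CDEP on both, without overlap, and its replicate 1 was the highest of all arrays for Gapdh. For Gapdh, however, the lowest saline array (0.125) was barely above the highest CDEP array (0.123). With ovalbumin the direction was the other way, at 0.01 to 0.32 in OVA and 0.19 to 0.58 in CDEP+OVA for Gapdh. These ranges overlap. Actb gave 0.73 to 0.91 in OVA, 0.95 to 1.08 in NDEP+OVA and 0.85 to 1.23 in CDEP+OVA. On Actb, NDEP+OVA thus lay above OVA without overlap, while its Gapdh range, 0.21 to 0.47, overlapped that of OVA. The part of RNA quality in the chaperone differences was tested only as a covariate. With both measures as covariates, the counts of raised genes were 0 for NDEP, 4 for ADEP and 0 for CDEP against saline, and 3, 2 and 8 for NDEP+OVA, ADEP+OVA and CDEP+OVA against OVA. The NDEP+OVA calls of Hspa5 (0.47, adjusted p = 0.072), Pdia4 (0.47, 0.133) and Ddit3 (0.39, 0.0681) were lost with these covariates. Of the 4 genes called without them, Sdf2l1 alone was kept, so the count of 3 includes genes not called before. In the NDEP comparison with these covariates, Manf was 0.62, Hspa5 0.52, Pdia6 0.46 and Hsp90b1 0.57 higher. In the CDEP comparison with these covariates, Manf was 0.83, Hspa5 0.71, Pdia6 0.56, Hsp90b1 0.59 and Sdf2l1 0.5 higher (adjusted p = 0.0856, 0.112, 0.153, 0.244 and 0.338). Without the pair of arrays of highest Gapdh difference (saline replicate 1 and CDEP+OVA replicate 3), an alternative chosen after the data were seen, the counts against saline were 0, 0 and 3.

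**Figure D4:**
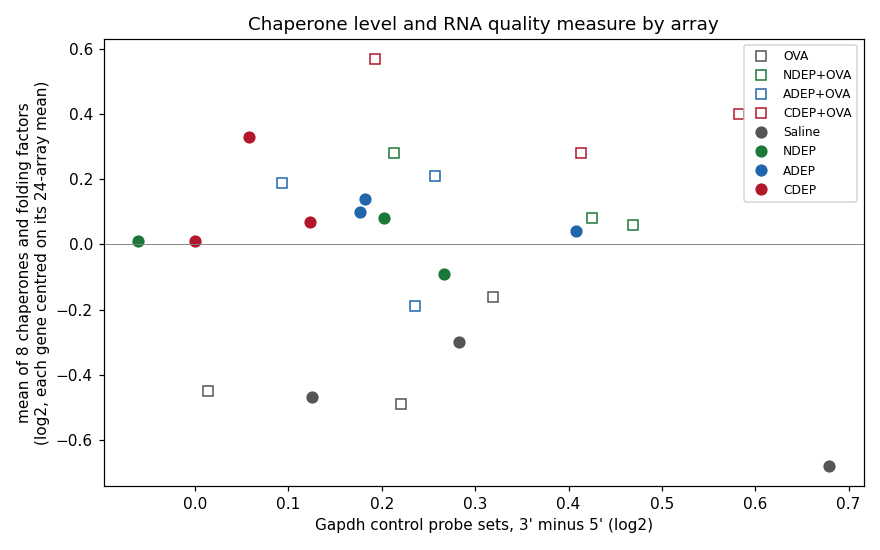
Mean of the 8 chaperones and folding factors on each array (y axis, log2, each gene centred on its mean over 24 arrays) against the Gapdh 3′ minus 5′ difference (x axis, log2); circles are groups without ovalbumin, squares with it, and colours give the particle. The saline array farthest right, at 0.68, is also the lowest, at -0.68, and the 3 CDEP+OVA arrays, at differences of 0.19 to 0.58, have means of 0.28 to 0.57.

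Marker genes of other cell types moved in the same comparisons. Over all genes, 2.25%, 1.16% and 2.28% rose with NDEP, ADEP and CDEP against saline, and 1.74%, 0.629% and 3.62% rose with NDEP+OVA, ADEP+OVA and CDEP+OVA against OVA. Of 8 goblet and club cell genes, all measured, 6 rose with CDEP+OVA over OVA and 5 with NDEP+OVA, and their summed intensity was 19253 to 23219 in OVA, 24354 to 25595 in NDEP+OVA and 23515 to 29494 in CDEP+OVA. Muc5ac, the airway gel mucin, rose by 1.93 ± 0.18, and Agr2, a disulfide isomerase of mucous cells, by 2.97 ± 0.45 in CDEP+OVA. All 8 had an unadjusted p under 0.05 in CDEP+OVA over OVA, against 17.8% of all genes. Of these, 7 were higher in value and the remaining one was lower. Against saline, 0, 1 and 0 of the 8 rose with NDEP, ADEP and CDEP. Of 5 macrophage genes, 4 rose with NDEP+OVA and 4 with CDEP+OVA (summed intensity 801 to 972 in OVA, 1433 to 3805 and 2439 to 2612), and none rose against saline. Of 6 neutrophil genes, 3, 2 and 3 rose with NDEP, ADEP and CDEP over saline, from 436 to 712 summed in saline to 936 to 1027 in CDEP, and none rose over OVA. Alveolar type 2 genes rose in 2, 1 and 1 of 5 measured against saline, where the sum was 20732 to 31643 and in CDEP 31811 to 33105. None rose against OVA. Of 8 plasma cell genes measured, 1 rose in each comparison with saline and 1, Fkbp11, with CDEP+OVA, from sums of 945 to 1139 in OVA to 1087 to 1277. Fkbp11 also stands among the folding helpers, and Tnfrsf17, a defining plasma cell receptor, was under the 25th percentile of the array in all groups. Heart muscle genes fell in 5 of 6 with CDEP+OVA, from 4692 to 5659 summed in OVA to 2053 to 2991, and 1 of 6 fell with each of NDEP, CDEP and NDEP+OVA. Among all genes 1.17% fell with CDEP+OVA, and 0.452%, 1.76% and 0.331% with those 3. The part of these cell types in the chaperone differences was not tested.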

How the data were processed

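Lung RNA of 24 mice was labelled with biotin and measured on 1-colour Affymetrix arrays, per the labels' protocols. The authors deposited probe set intensity after RMA normalization, per the submitters' processing notes (version not given in the sources used here). Its values lie on a linear scale (5.98 to 18195.5, array medians 72.2 to 75.5), so log2 was taken. RMA compresses differences of dim probe sets. Precision is limited by 3 arrays a group. Of 22690 probe sets, 64 controls, 691 with several gene symbols and 1555 with none were left out. The probe set with the highest mean stood for each gene, without a filter on dim ones. limma 3.58.1 in R 4.3.3 fitted 8 group means to all 24 arrays (16 residual and 8.16 prior degrees of freedom), with eBayes and Benjamini-Hochberg adjustment within each of 23 comparisons. Python 3.11.15 did the rest. On simulated data for CDEP against saline (12393 genes, 200 changed, 10 simulations), 76.6% of 1.5-fold and 98% of 2-fold changes were found, and 5.52% of calls were false. The simulated noise was drawn separately for each gene. These rates therefore do not cover shifts that many genes of an array share, such as those of RNA quality.

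The genes and lists were chosen with earlier results of these data known. All 10 genes are named, with up to 4 genes by smallest p from each further pathway list, and Atf6, Ern1, Eif2ak3, Atf4, Dnajb9 and Calr always. Muc5ac, Agr2 and Fkbp11 were named after their values were seen, and Tnfrsf17 because it is dim. Not measured here under a single symbol were Cdnf, Mbtps2, Eif2a, Eif2s1, Mzb1, Lamp3 and Ear1. Alternatives tried were all probe sets, a dim filter, quantile normalization again, array weights, trend with robust eBayes, the compared groups alone, a replicate block, RNA quality covariates, other probe sets of a gene, and leaving out each array. A search of the promoters for known stress response elements was run and left out, because their letters were not in the sources used here.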

Additional observations from a re-analysis of the deposited data

How the results depend on the processing

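Directions held for most genes, whereas counts against saline were less stable than those of CDEP+OVA against OVA. NDEP against saline went from 4 genes raised to 0 with the compared groups alone, with RNA quality covariates, and without the pair of arrays of highest Gapdh difference. ADEP against saline went from 4 to 1 with the compared groups alone and 0 without that pair. CDEP against saline went from 5 to 0 with the covariates and 3 without the pair. NDEP+OVA against OVA went from 4 to 2 with all probe sets, quantile normalization again, or the compared groups alone. ADEP+OVA against OVA went from 0 to 4 with array weights and 2 with the covariates, and ovalbumin averaged from 1 to 0 with the covariates. CDEP+OVA against CDEP went from 0 to 3 with array weights. CDEP+OVA against ADEP+OVA went from 1 to 0 with quantile normalization, array weights, trend with robust eBayes, the compared groups alone, the covariates, or without the pair. Leaving out 1 array gave 0 to 4 genes for NDEP, 0 to 4 for ADEP and 3 to 5 for CDEP against saline, 1 to 5 for NDEP+OVA, 0 to 1 for ADEP+OVA and 6 to 8 for CDEP+OVA against OVA. Averaged over ovalbumin states it gave 7 to 8 for NDEP, 5 to 9 for ADEP and 9 for CDEP (the lowest ADEP count came without saline replicate 1, ADEP replicate 3, OVA replicate 2 or ADEP+OVA replicate 2). It gave 0 to 1 for CDEP+OVA against CDEP and 0 to 2 for CDEP+OVA against ADEP+OVA. Replicate numbers did not pair the arrays (same-number deviations correlated at -0.32 to 0.35, median 0.03). With the replicate block, ADEP+OVA against OVA gave 1 gene, CDEP+OVA against CDEP 1, and CDEP+OVA against ADEP+OVA 2, and no other count moved by over 1.5 times. The dim probe set of Pdia4 reversed CDEP+OVA against OVA (-0.16) and the averaged ADEP and CDEP effects (both -0.05), and that of Pdia6 reversed NDEP (-0.14) and ADEP (-0.05) against saline. The cause of these changes was not tested.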
